A study of Mus musculus with 20 samples.

Results

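The comparison described here sets old mice that had been calorically restricted at some time against old mice that never were. It rests on 15 of the 20 arrays of the series, chosen by their diet labels: 5 Old CR arrays, 5 Old CR-ND arrays and 5 Old ND arrays. Old CR mice had 2 months of normal diet (ND) and after it 7 months of 30% caloric restriction (CR), so they were restricted when collected. In Old CR-ND mice the order was reversed, with 30% restriction over 7 months followed by 2 months of normal diet. Old ND mice stayed on free access to the normal diet throughout, for 9 months. The old mice were female, 9 months old at the start and 18 months old at collection, and the labels name no strain, transgene or drug. The other 5 arrays, Young ND, come from 4-week-old mice that ate the normal diet for 4 weeks, and they entered the fit only to help estimate the spread and are shown as levels. Each array holds RNA of 10000 dermal fibroblasts, and the labels call the 5 of a group biological replicates without saying whether animals were pooled. The cells were sorted for Pdgfra and CD34 and against CD45, CD117, CD24, CD31 and EpCam after removal of the subdermis, and their cDNA was amplified over 20 cycles.

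Caloric restriction lowers energy intake without malnutrition, and in rodents it delays many signs of aging and thins the fat layer beneath the skin. Dermal fibroblasts make the collagen, elastin and proteoglycans of the skin, and they send signals to hair follicles, immune cells and fat cells. The question of the comparison is which genes differed from never restricted mice in both schedules, that is, whether restriction was still running or had ended before collection. The effect of a gene is given as its change averaged over both schedules with equal weight, restricted minus Old ND on the log2 scale, ± the standard error of limma (10 against 5 arrays), and the adjusted p is over all 17097 genes measured.

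The smallest p of the comparison belonged to Rian, which lies beside Meg3 in the imprinted Dlk1-Dio3 region of chromosome 12. Both are long noncoding RNAs transcribed from the maternal copy, and Rian carries small nucleolar RNAs and microRNAs in its introns. The sequences from 250 bases before to 50 bases after an annotated start are shown for these 2 genes, because they moved together, and for Creb5, a transcription factor that binds cAMP response elements, because Creb5 and Meg3 were the 2 of 55 called genes with a listed promoter that held the complete element TGACGTCA. They are RefSeq sequences of GRCm38.p6, all on the plus strand: Meg3 at chr12:109540746-109541045, Rian at chr12:109603695-109603994 and Creb5 at chr6:53287053-53287352. Capitals mark TGACGTCA, which reads the same on both strands, and TGCCGC, the motif of the imprint-keeping protein ZFP57, searched on both strands.
Meg3: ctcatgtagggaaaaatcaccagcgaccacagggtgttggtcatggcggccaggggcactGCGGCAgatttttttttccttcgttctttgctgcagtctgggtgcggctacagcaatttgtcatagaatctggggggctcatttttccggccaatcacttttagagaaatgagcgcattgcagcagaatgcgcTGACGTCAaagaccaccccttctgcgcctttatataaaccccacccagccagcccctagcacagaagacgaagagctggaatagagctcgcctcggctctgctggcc
Rian: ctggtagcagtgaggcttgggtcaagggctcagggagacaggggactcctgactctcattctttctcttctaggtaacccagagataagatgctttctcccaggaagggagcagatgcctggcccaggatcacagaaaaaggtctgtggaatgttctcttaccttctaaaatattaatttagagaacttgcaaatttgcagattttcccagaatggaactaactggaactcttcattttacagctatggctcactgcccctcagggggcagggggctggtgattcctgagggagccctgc
Creb5: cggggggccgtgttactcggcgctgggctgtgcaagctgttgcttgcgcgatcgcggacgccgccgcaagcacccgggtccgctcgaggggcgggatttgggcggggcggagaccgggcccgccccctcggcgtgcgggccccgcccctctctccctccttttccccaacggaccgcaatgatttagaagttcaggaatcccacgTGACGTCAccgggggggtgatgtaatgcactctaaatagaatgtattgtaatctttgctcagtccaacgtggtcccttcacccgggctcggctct
The element TGACGTCA was in 1.79% of 32851 promoters of this length and TGCCGC in 11.6%. Of the 55 genes, 11 held TGCCGC in at least 1 listed promoter. The percentages count single promoters, whether or not the gene was measured, and the 11 counts genes, some with several promoters. These units differ, so no excess is read from them. Meg3 and Creb5 each have a second listed start whose window held neither, and the Rian window held neither. A match is a description of these letters, not a binding site.

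The array medians lay between 5.27 and 5.34, single values between 2.71 and 13.46, and no pair of arrays was identical. The numbers in the sample titles fall into 2 runs, with 4 and 1 Old CR arrays, 3 and 2 Old CR-ND arrays and 3 and 2 Old ND arrays in the first and second run, and 2934 genes passed the test of run in a fit that also held the groups. The sorted cells carried fibroblast transcripts: the small proteoglycan decorin (Dcn) averaged 13.28 in Old CR, 13.22 in Old CR-ND and 13.21 in Old ND, and the sorting marker Cd34 averaged 11.23, 11.19 and 11.01. In Old ND replicates 1 and 3 Cd34 read 10.80 and 10.79, against 11.11 to 11.20 on the remaining Old ND arrays. The other sorting marker, Pdgfra, averaged 5.90 in Old CR, 6.08 in Old CR-ND and 6.20 in Old ND, a change of -0.21 against 0.21 for Cd34, and neither passed. Pdgfra read 6.09 and 6.27 in Old ND replicates 1 and 3, within the 5.63 to 6.54 of the remaining Old ND arrays. Of the genes sorted against, Kit, Ptprc (CD45), Epcam, Pecam1 (CD31) and Cd24a changed by between -0.43 and -0.01, and none passed the test. The mean of 12 fibroblast markers spanned 10.55 to 10.73 in Old CR, 10.51 to 10.75 in Old CR-ND and 10.55 to 10.66 in Old ND. Keratinocyte transcripts were present on the arrays, and 0 of 13 markers passed. The mean of the 13 markers spanned 6.16 to 6.61 in Old CR, 6.33 to 7.16 in Old CR-ND and 5.57 to 7.40 in Old ND. Old ND replicate 1 had the highest mean of all old arrays, 7.40, and Old ND replicate 3 the lowest, 5.57.

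Markers of the dermal papilla and sheath, the fibroblasts that form the core and sleeve of the hair follicle, differed between Old ND arrays. The mean of 15 such markers was 5.31 to 5.37 on the Old CR arrays and 5.37 to 5.64 on the Old CR-ND arrays. On the Old ND arrays it was 5.89, 5.48, 6.03, 5.45 and 5.33, so that replicates 1 and 3 lay above all other old arrays. The integrin Itga8 showed the same arrays, at 6.50 and 6.64 in Old ND replicates 1 and 3, against 4.07 to 4.69 on the other 3 Old ND arrays, and it read 3.78 to 4.01 in Old CR and 3.98 to 5.12 in Old CR-ND. The Wnt inhibitor Wif1 was highest at 6.35 in Old ND replicate 3. Alx4, Crabp1 and Vcan were also highest among Old ND arrays in replicates 1 and 3. Not all markers did so. Fgf7 read 8.43 in Old ND replicate 3, against 8.82 to 9.33 on the remaining Old ND arrays. Bmp4 read 8.97 and 8.64 in replicates 1 and 3, against 8.54 to 9.18 on the other 3. Of the list's other defining markers, Sox2 averaged 2.96 in Old CR, 2.93 in Old CR-ND and 2.97 in Old ND, near the lowest values of the arrays, and 0 of the 15 markers passed the test. In sorted bulk samples, fewer cells of a type and less RNA per cell cannot be told apart. The part of these cells in the results was not tested. Values without Old ND replicates 1 and 3 are given for the called genes and named pathway genes that they moved by over 1.5 times.

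**Figure D1:**
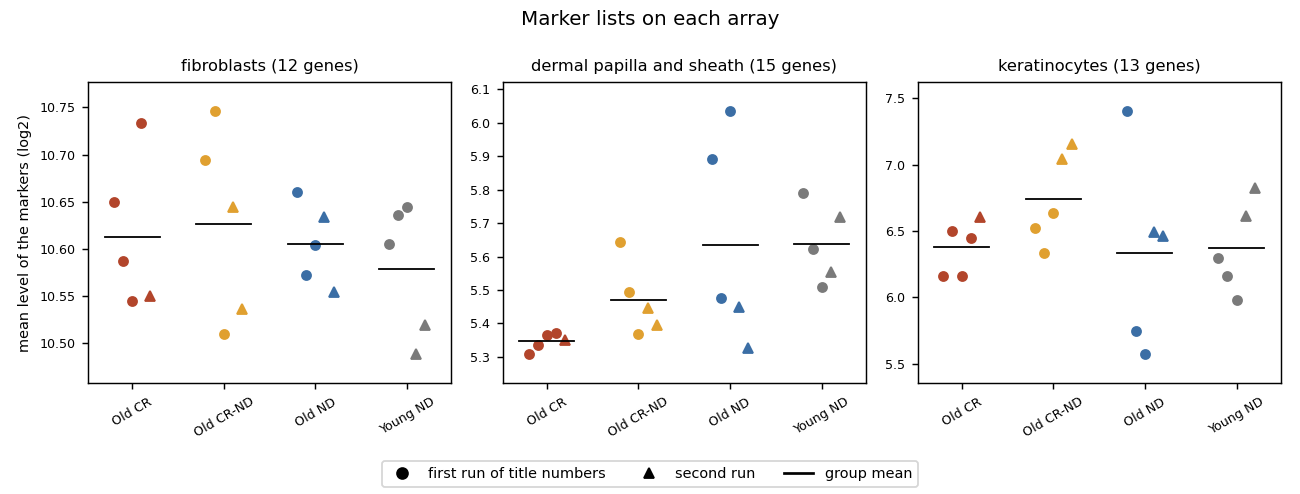
Mean log2 level of fibroblast, dermal papilla and sheath, and keratinocyte markers on each array, in 4 groups of 5; circles are arrays of the first run of title numbers, triangles of the second, and the line is the group mean. Old ND replicates 1 and 3 stand at 5.89 and 6.03 for the dermal papilla and sheath markers, above the other 13 old arrays, while the fibroblast markers of all old arrays lie between 10.51 and 10.75.

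In the averaged comparison 67 of 17097 genes passed an adjusted p of 0.05 (0.392%), 44 of them higher (0.257%) and 23 lower (0.135%) in restricted mice. At an unadjusted p under 0.05 there were 1757. Fitted on the 15 old arrays, without Young ND, 25 of the 67 passed. The fit shares 1 estimate of the spread between the groups. Old ND had the widest spread, with a median standard deviation of 0.17 against 0.13 to 0.14 in the other groups. The changes were moderate: 13 genes reached 2-fold, 8 of them higher and 5 lower, and the median size over the 67, sign ignored, was 0.65. With the sign kept, the median change over all genes was 0.008. Rises and falls cancel in that value, so it does not give the size of a typical gene. All 10 restricted arrays lay above all 5 Old ND arrays for 13 of the called genes, and for 23 of all genes (0.135%). They lay below for 4 of the called genes, and for 5 of all genes (0.0292%). Per schedule, 409 genes passed for Old CR minus Old ND (2.39%), and 1 gene, Rian, passed for Old CR-ND minus Old ND (0.00585%, with 868 at an unadjusted p under 0.05). Both schedules share the Old ND arrays, so their values are set side by side.

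The calls rest to a large extent on 2 Old ND arrays. Without Old ND replicate 3, 6 of the 67 genes still passed (Cmah, Ddah1, Meg3, Mgp, Rian and Sema3b), and without Old ND replicate 1 it was 12. These 6 were also the genes that passed with any 1 of the 15 old arrays left out. Leaving out a single old array other than Old ND replicates 1 and 3 left 35 to 65 of the 67. Without both arrays, 4 of the 67 passed: Rian by 1.30, Meg3 by 1.33, Ddah1 by 1.10 and the potassium channel gene Kcnma1, which fell by 0.52. All 67 kept their direction without the pair and were at least 0.5 times as large, with a median size of 0.47. Of them, 16 moved by over 1.5 times. Kcnma1 is dim, with a mean of 4.57 over all arrays against 5.88 for the median gene. Its second probe set changed by -0.105 in the main fit.

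**Figure D2:**
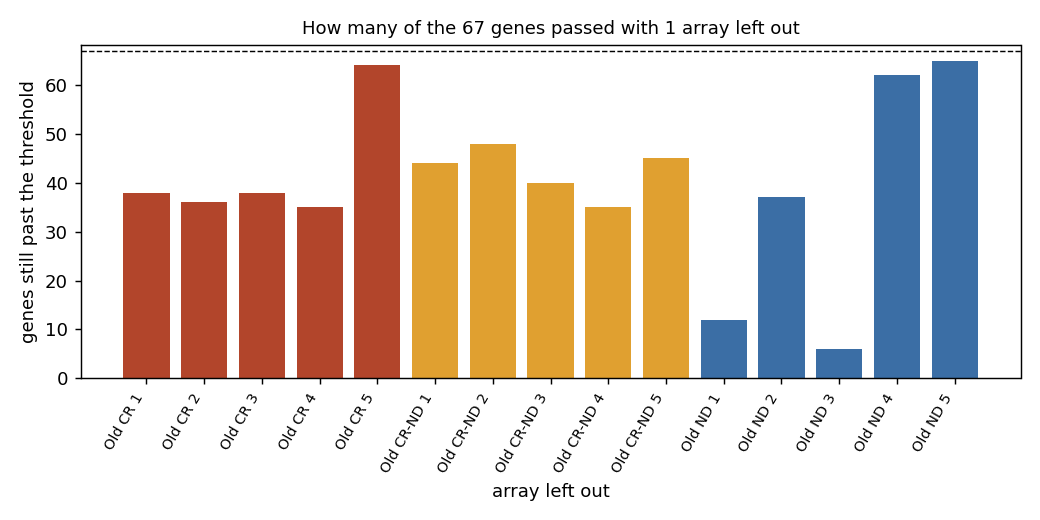
Number of the 67 genes that still passed an adjusted p of 0.05 when the array named on the x axis was left out, coloured by group (Old CR, Old CR-ND, Old ND); the dashed line is at 67. Leaving out Old ND replicate 3 left 6 genes and Old ND replicate 1 left 12. Any other single array left 35 to 65, with 62 without Old ND replicate 4 and 65 without Old ND replicate 5.

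The imprinted noncoding RNAs gave the steadiest difference. Rian read 9.66, 10.24, 9.84, 9.70 and 9.39 in Old CR and 9.00, 9.26, 9.37, 9.21 and 9.28 in Old CR-ND, against 8.49, 7.88, 8.25, 8.51 and 8.20 in Old ND. All 10 restricted arrays lay above all Old ND arrays, and Old CR above Old CR-ND. Rian rose by 1.23 ± 0.11 (2.34-fold, adjusted p = 1.26e-05), with 1.5 in Old CR and 0.96 in Old CR-ND. Its level in Young ND was 10.77. Each of its 4 probe sets was higher, by 1.23 to 1.52.

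Meg3 read 10.83, 11.25, 10.76, 10.52 and 10.04 in Old CR and 10.34, 10.42, 10.34, 9.83 and 10 in Old CR-ND, against 9.83, 9.27, 9.55, 9.24 and 8.80 in Old ND. The groups met at a single value, 9.83. Meg3 rose by 1.10 ± 0.17 (2.14-fold, adjusted p = 0.00864), by 1.34 in Old CR and 0.85 in Old CR-ND, and averaged 11.72 in Young ND. All 10 of its probe sets were higher, by 0.44 to 1.31. Unlike most called genes, Meg3 changed about as much among second-run arrays (0.96) as among first-run arrays (1.05). Of the other measured members of the locus, chosen for naming after their values were seen, the noncoding RNA Mirg changed by 0.74 ± 0.27 (adjusted p = 0.30) and the protein-coding Dlk1, a Notch-related inhibitor of fat cell formation expressed from the paternal copy, by 0.06 ± 0.11.

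**Figure D3:**
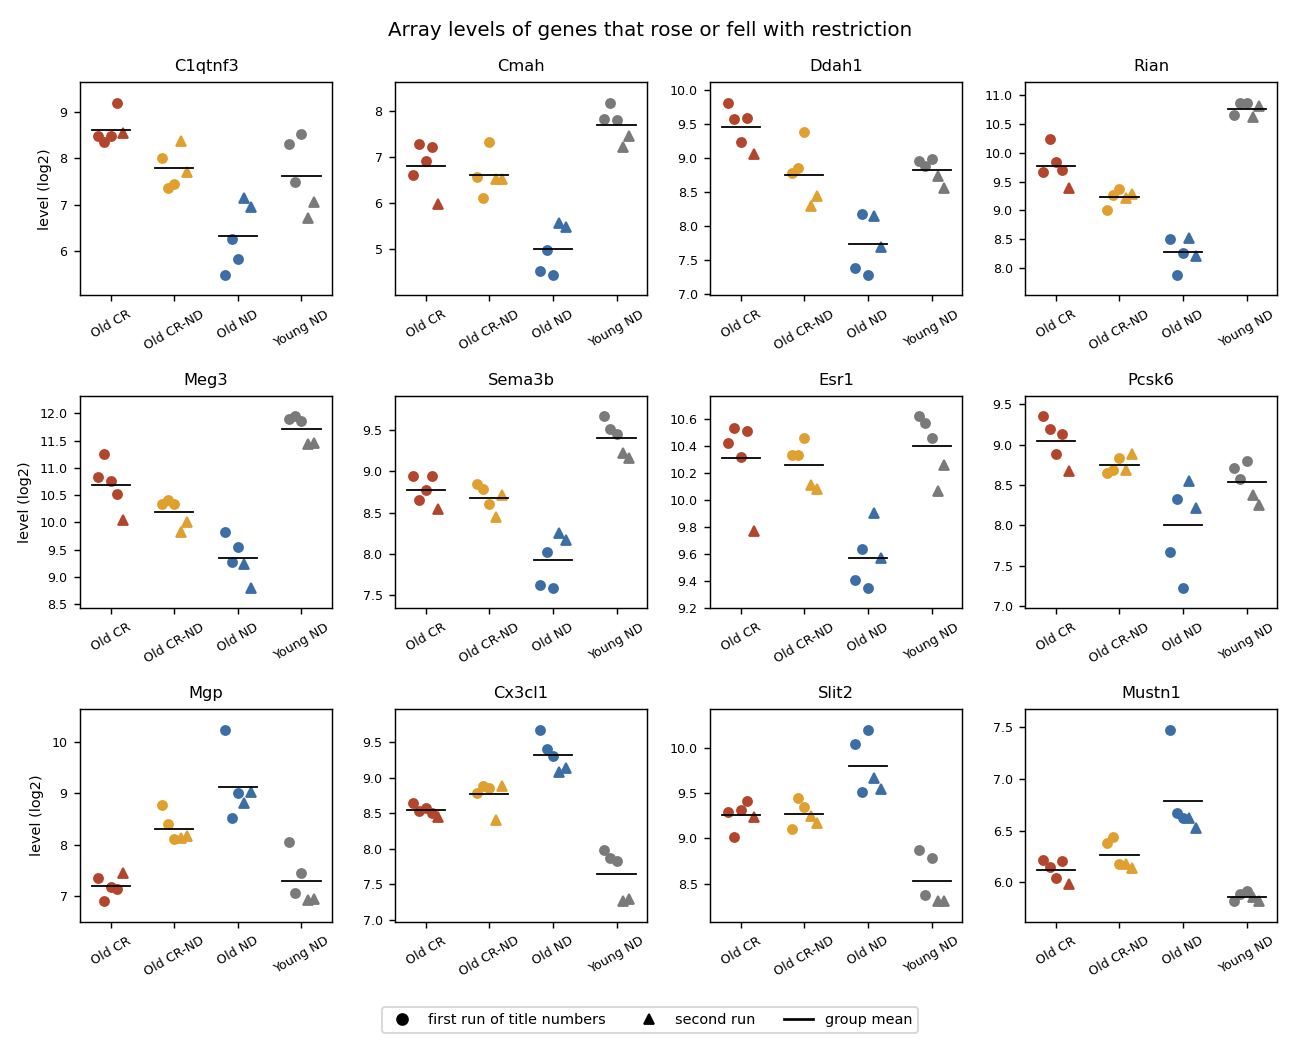
Log2 level of 12 genes past the threshold on each array, in the groups Old CR, Old CR-ND, Old ND and Young ND; circles and triangles are the first and second run of title numbers and the line is the group mean. Rian, Cmah and Sema3b show all 10 restricted arrays above all Old ND arrays, and Cx3cl1, Slit2 and Mustn1 show them below.

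Among genes of metabolism and secretion, C1qtnf3, a secreted adipokine of the C1q/TNF family that lowers glucose output by the liver in mice, had the largest averaged rise. It read 8.47, 8.35, 8.48, 9.19 and 8.55 in Old CR and 8.01, 7.36, 7.45, 8.37 and 7.71 in Old CR-ND, against 5.50, 6.26, 5.84, 7.14 and 6.95 in Old ND. The groups did not overlap, and the Old ND arrays spread more widely than those of either schedule. The rise was 1.86 ± 0.29 (3.62-fold, adjusted p = 0.00864), and the call was lost without Old ND replicate 3 (adjusted p = 0.053). The other 7 measured genes of its family did not pass.

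Cmah encodes the hydroxylase that turns one sialic acid, Neu5Ac, into another, Neu5Gc. It read 6.61, 7.28, 6.92, 7.22 and 5.99 in Old CR and 6.57, 6.11, 7.32, 6.53 and 6.52 in Old CR-ND, against 4.52, 4.99, 4.45, 5.57 and 5.49 in Old ND, with no overlap. Its change was nearly the same in both schedules, 1.80 in Old CR and 1.61 in Old CR-ND, and 1.70 ± 0.23 on average (3.26-fold, adjusted p = 0.00222). The difference between the schedules was -0.19, with a 95% interval from -0.75 to 0.36. The level in Young ND was 7.70. Its 4 probe sets were all higher, by 0.21 to 1.70.

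Ddah1 breaks down asymmetric dimethylarginine, an inhibitor of nitric oxide synthases. It read 9.81, 9.58, 9.24, 9.59 and 9.06 in Old CR and 8.78, 8.85, 9.38, 8.30 and 8.45 in Old CR-ND, against 7.39, 8.18, 7.29, 8.15 and 7.69 in Old ND. Every restricted array was higher than every Old ND array. Ddah1 rose by 1.36 ± 0.17 (2.57-fold, adjusted p = 0.000971). Of its 5 probe sets, 4 were higher at an unadjusted p under 0.05, and the dimmest changed by 0.06.

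Smaller rises touched other enzymes. The sphingosine kinase Sphk1, which makes sphingosine 1-phosphate, rose by 0.51 ± 0.10 and the dipeptidase Cndp2 by 0.65 ± 0.12, each nearly alike in both schedules (0.59 in Old CR and 0.44 in Old CR-ND for Sphk1, 0.67 and 0.64 for Cndp2). Decr1, a mitochondrial reductase needed to oxidize unsaturated fatty acids, rose by 0.30 ± 0.06 without overlap between the groups. Its second, dimmer probe set changed by 0.09. Galnt2, which starts O-linked sugar chains, rose by 0.35 ± 0.07 without overlap, and Gmppa, a regulator of GDP-mannose synthesis, by 0.38 ± 0.08. Without Old ND replicates 1 and 3 the change of Cndp2 was 0.41 and that of Abcc4, 0.40. The efflux pump Abcc4 rose by 0.76 ± 0.17, the lipid hydrolase Aig1 by 0.53 ± 0.09 and the mitochondrial ribosome factor Malsu1 by 0.43 ± 0.09. Of the other enzyme genes, the mono-ADP-ribosyltransferase relative Art3 (0.41) and the metallopeptidase Amz2 (0.39) each rose on the brighter of 2 probe sets, while the dimmer changed by 0.03 and 0.01.

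Receptors and ligands formed a further group. Esr1, the estrogen receptor alpha, read 10.42, 10.53, 10.32, 10.51 and 9.77 in Old CR and 10.33, 10.33, 10.46, 10.11 and 10.08 in Old CR-ND, against 9.41, 9.64, 9.35, 9.90 and 9.57 in Old ND. Only Old CR replicate 5 fell within the Old ND range. Esr1 rose by 0.71 ± 0.12 (1.64-fold, adjusted p = 0.0167), by 0.74 in Old CR and 0.69 in Old CR-ND, and its level in Young ND was 10.40. First-run arrays alone gave a change of 0.94, second-run arrays alone 0.20. The receptor of atrial natriuretic peptide, Npr1, rose by 0.71 ± 0.15, the epidermal growth factor receptor ligand Btc by 0.67 ± 0.12 and the platelet-derived growth factor Pdgfd by 0.62 ± 0.13.

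The proprotein convertase Pcsk6, which cleaves precursors of the TGF-beta family, read 9.35, 9.19, 8.88, 9.13 and 8.67 in Old CR and 8.65, 8.69, 8.83, 8.69 and 8.88 in Old CR-ND, against 7.67, 8.33, 7.23, 8.55 and 8.22 in Old ND. No restricted array reached into the Old ND range. Pcsk6 rose by 0.90 ± 0.16 (1.86-fold, adjusted p = 0.0211), and by 0.53 without Old ND replicates 1 and 3, where it no longer passed (adjusted p = 0.25).

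Guidance signals moved in both directions. Sema3b, a secreted semaphorin, read 8.94, 8.66, 8.77, 8.94 and 8.54 in Old CR and 8.85, 8.79, 8.60, 8.45 and 8.72 in Old CR-ND, against 7.62, 8.02, 7.59, 8.26 and 8.17 in Old ND. The groups did not overlap, and both schedules stood alike. Sema3b rose by 0.79 ± 0.11 (1.73-fold, adjusted p = 0.00379), with 0.84 in Old CR and 0.75 in Old CR-ND. Its receptor Nrp1, which also binds vascular endothelial growth factor, read 7.46, 7.43, 7.58, 7.71 and 8.10 in Old CR and 8.44, 8.37, 7.94, 8.46 and 8.29 in Old CR-ND, against 8.98, 8.53, 9.30, 9.04 and 8.33 in Old ND. Old CR lay below every Old ND array, and 3 Old CR-ND arrays fell within the Old ND range. Nrp1 fell by 0.86 ± 0.15 (adjusted p = 0.0177) on its brightest probe set, and its 3 probe sets were lower by 0.86 to 0.91.

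Slit2, the ligand of Robo receptors, read 9.29, 9.02, 9.31, 9.41 and 9.24 in Old CR and 9.10, 9.45, 9.35, 9.25 and 9.17 in Old CR-ND, against 10.04, 9.51, 10.20, 9.67 and 9.55 in Old ND. The groups did not overlap. Slit2 fell by 0.54 ± 0.12 (adjusted p = 0.0494), by 0.54 in Old CR and 0.53 in Old CR-ND, and by 0.32 without Old ND replicates 1 and 3. Srgap1, which acts below Robo receptors, rose by 0.61 ± 0.11. The adhesion molecules Ncam2 and Cldn10 rose by 0.73 ± 0.15 and 0.70 ± 0.13. Without Old ND replicates 1 and 3 the change of Ncam2 was 0.47 and that of Cldn10 0.46, and neither passed.

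Transcription factors and chromatin genes among the rises were Prdm8 by 1.35 ± 0.28, Creb5 by 0.73 ± 0.14, the zinc finger repressor Zfp536 by 0.46 ± 0.10, the chromatin remodelling subunit Actl6a by 0.39 ± 0.07 and Tcf21, a factor of mesenchymal precursors, by 0.24 ± 0.05. Prdm8 showed the widest Old ND spread of them, at 6.08, 7.24, 5.81, 7.75 and 7.63, against 7.96 to 8.90 in Old CR and 7.47 to 8.51 in Old CR-ND, and its change was 0.71 without Old ND replicates 1 and 3. Actl6a and Tcf21 were higher on every restricted array than on any Old ND array. The second probe set of Actl6a changed by -0.02, the only opposite sign among the 31 called genes with several probe sets. The same sign does not mean a like size. The second probe set of AW551984 changed by 0.17 and that of Zbtb7c by -0.01, and the dimmest sets of Baalc by -0.06 and -0.04. Remaining rises with a known role were the thrombospondin Thbs3 (0.49), the ARF and Mdm2 interactor Tbrg1 (0.39), the ubiquitin ligase Lnx2 (0.51), the p38 kinase Mapk12 (0.43), the Src substrate Efs (0.35), the scaffold Mpp6 (0.56) and the early response gene Apold1 (0.70), the first 3 of these without overlap. AW551984 (1.34), Gm15241 (0.78), 1700019D03Rik (0.60) and Gm16364 (0.37) also rose.

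Among the 23 genes that fell, Mgp, the matrix Gla protein that inhibits calcification, read 7.35, 6.91, 7.18, 7.14 and 7.46 in Old CR and 8.77, 8.40, 8.12, 8.13 and 8.17 in Old CR-ND, against 10.24, 8.52, 9.01, 8.82 and 9.03 in Old ND. Old CR lay below every other old array, and 1 Old CR-ND array stood within the Old ND range. Mgp fell by 1.36 ± 0.22 (0.39 of the Old ND level, adjusted p = 0.0103), by 1.92 in Old CR and 0.81 in Old CR-ND, and averaged 7.29 in Young ND. It was the 1 falling gene that passed whichever array was left out.

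Dkk2, a secreted modulator of Wnt signalling, read 5.62, 5.86, 6.12, 6.13 and 6.25 in Old CR and 7.79, 7.18, 6.24, 7.14 and 6.86 in Old CR-ND, against 8.44, 7.57, 8.68, 7.50 and 7.23 in Old ND. Old CR lay below every Old ND array, and 1 Old CR-ND array lay within the Old ND range. Dkk2 fell by 1.37 ± 0.25 (adjusted p = 0.0211). Cpe, the carboxypeptidase that trims peptide hormone precursors, had the largest fall among the called genes and spread widely: 5.90, 6.01, 7.03, 6.48 and 6.86 in Old CR and 8.46, 8.28, 6.95, 7.64 and 7.53 in Old CR-ND, against 8.92, 8.30, 9.87, 8.19 and 7.48 in Old ND. Most Old CR-ND arrays overlapped Old ND. The fall was 1.44 ± 0.30 (adjusted p = 0.0397), 0.88 without Old ND replicates 1 and 3.

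Both called chemokines fell. Cx3cl1 (fractalkine), a membrane-bound chemokine for monocytes, read 8.65, 8.53, 8.57, 8.50 and 8.45 in Old CR and 8.78, 8.88, 8.86, 8.41 and 8.89 in Old CR-ND, against 9.68, 9.40, 9.31, 9.08 and 9.14 in Old ND. All restricted arrays lay below all Old ND arrays. It fell by 0.67 ± 0.12 (adjusted p = 0.0211), on both probe sets, and averaged 7.65 in Young ND. The neutrophil chemokine Cxcl2 read 3.91, 4.56, 4.10, 4.06 and 5.03 in Old CR and 5.71, 5.53, 5.33, 5.48 and 5.31 in Old CR-ND, against 6.46, 4.81, 7.08, 6.81 and 6.05 in Old ND. Old ND replicate 2 lay below the whole of Old CR-ND. Cxcl2 fell by 1.34 ± 0.28 (adjusted p = 0.0397).

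Growth factor and signalling genes were also lower. Fgf10, a ligand of epithelial fibroblast growth factor receptors, fell by 0.68 ± 0.12, the neurotrophin 3 receptor Ntrk3 by 0.91 ± 0.18 and the TGF-beta repressor Tgif2 by 0.60 ± 0.13. The Gli-like factor Glis2 fell by 0.50 ± 0.10, Zbtb7c by 0.61 ± 0.12, the SERTA-domain gene Sertad4 by 1.12 ± 0.24 and the Rap GTPase-activating protein Rap1gap2 by 0.50 ± 0.09. Mustn1, a small nuclear protein of muscle and skeleton, fell by 0.59 ± 0.11 with no overlap between the groups, and D630039A03Rik fell by 0.33 ± 0.06 with none. Membrane and metabolic genes that fell were the taurine transporter Slc6a6 (-0.70), the enolase Eno2 (-0.77), Igsf3 (-0.73) and Kcnma1 (-0.45). The secreted protein Ccdc3 (-0.92), Ankrd33b (-0.75) and Baalc (-0.47) completed the list. Without Old ND replicates 1 and 3, 8 of these were smaller by over 1.5 times and did not pass: Ccdc3 (-0.57), Eno2 (-0.52), Ankrd33b (-0.49), Igsf3 (-0.40), Zbtb7c (-0.40), Slc6a6 (-0.38), Tgif2 (-0.34) and Baalc (-0.25).

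The 2 schedules did not contribute equally. Of the 67 genes, 63 changed more in Old CR, and the median size was 0.79 in Old CR and 0.45 in Old CR-ND. For 42 genes, 30 higher and 12 lower, the sign was the same and the smaller change was at least 0.5 of the larger. The other 25 (14 higher and 11 lower) all changed more in Old CR. The 14 were Ctla2a, Gm15241, Abcc4, Creb5, Ncam2, Npr1, Cldn10, Btc, 1700019D03Rik, Mpp6, Nsdhl, Malsu1, Npepl1 and Phka2, and the 11 were Glis2, Zbtb7c, Igsf3, Eno2, Nrp1, Ntrk3, Sertad4, Cxcl2, Mgp, Dkk2 and Cpe. Npr1, for example, changed by 1.08 in Old CR and 0.34 in Old CR-ND, Btc by 0.92 and 0.41, Malsu1 by 0.66 and 0.20, Mpp6 by 0.81 and 0.30, and Igsf3 by -1.07 and -0.39. The 4 genes with the larger change in Old CR-ND were Apold1 (0.55 in Old CR and 0.85 in Old CR-ND), Lnx2 (0.49 and 0.54), Slc6a6 (-0.66 and -0.74) and D630039A03Rik (-0.32 and -0.33). Because the average weights both, a gene can pass it through 1 schedule. The 67 were also called on that average, and both changes subtract the same Old ND arrays. The same sign and a similar size are therefore favoured in advance. The counts of 42 and 63 were not set beside all genes, and they describe the called genes only.

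**Figure D4:**
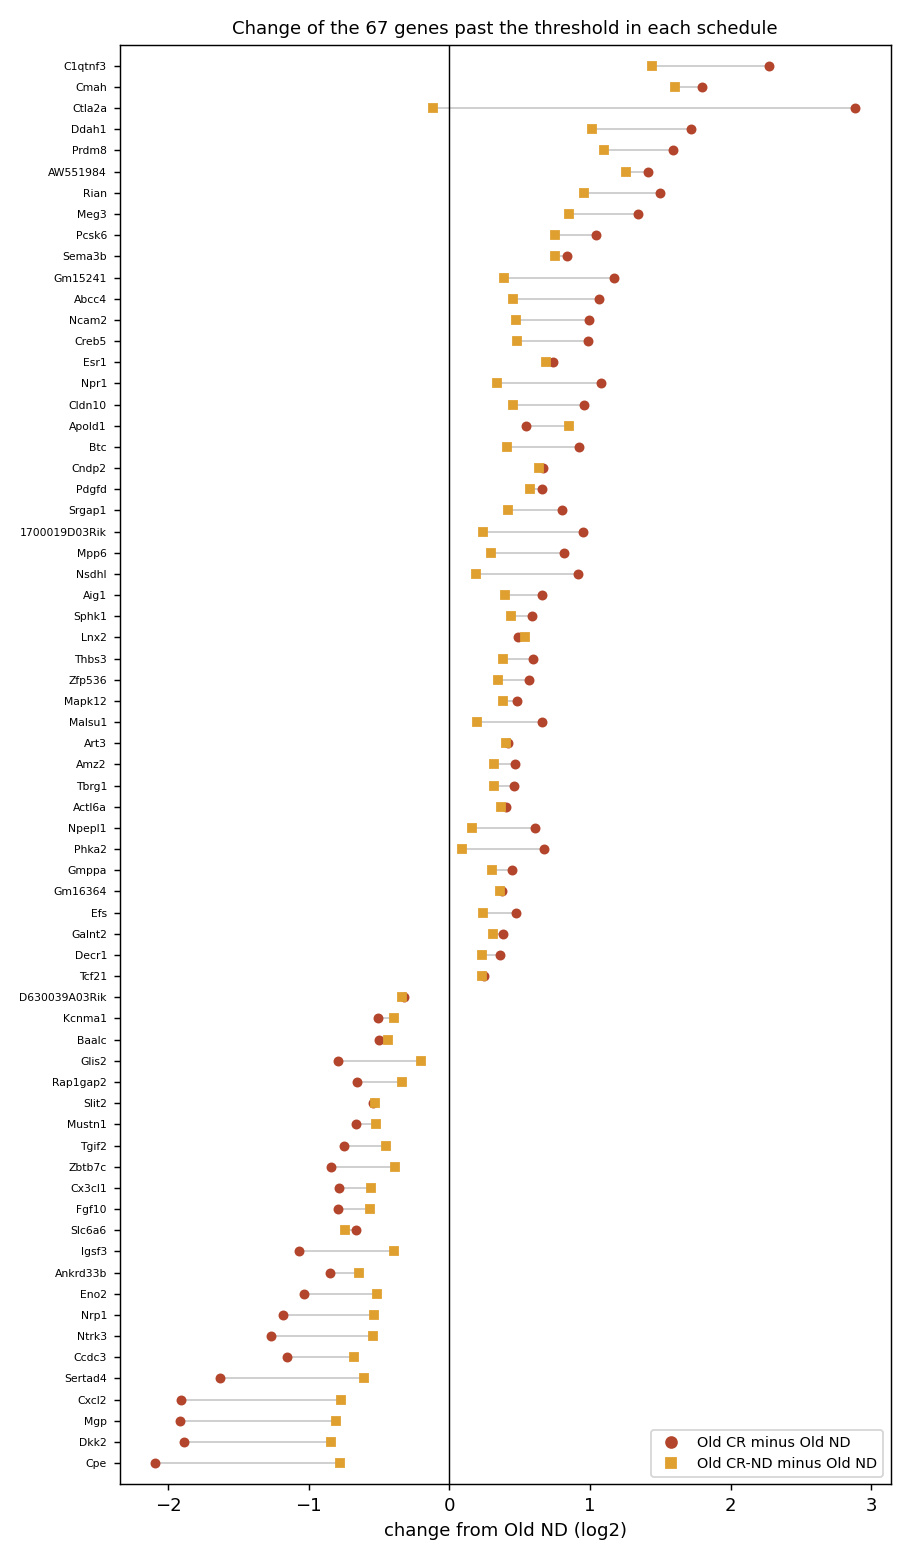
Change from Old ND on the log2 scale of each of the 67 genes past the threshold, circles for Old CR and squares for Old CR-ND, ordered by the averaged change with the largest rise at the top. Circles lie farther from 0 than squares for 63 genes, and Ctla2a is the 1 gene whose 2 symbols lie on opposite sides of 0.

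The direct test of the schedules, Old CR-ND minus Old CR, found 57 genes (0.333%), 21 higher and 36 lower in Old CR-ND. The Old ND arrays are not in its difference but add to the estimate of the spread, and the count was 102 without Old ND replicates 1 and 3. It held 7 of the 67. Ctla2a, an inhibitor of cathepsin L-like proteases, changed by 2.89 in Old CR and -0.11 in Old CR-ND, and the schedules differed by -3.00 ± 0.30 (adjusted p = 4.74e-05). Its near-identical neighbour Ctla2b may share its signal, so the assignment to Ctla2a is uncertain. The sterol dehydrogenase Nsdhl, a step of cholesterol synthesis, changed by 0.91 in Old CR and 0.19 in Old CR-ND, a difference of -0.72 ± 0.12 (adjusted p = 0.00959). The others were Phka2, a subunit of the kinase that starts glycogen breakdown, by -0.58, the aminopeptidase relative Npepl1 by -0.45, Gm15241 by -0.78, 1700019D03Rik by -0.72 and Glis2 by 0.59. The changes of these 7 genes thus differed in size between the schedules, and Ctla2a alone had opposite signs. None of the 7 passed for Old CR-ND minus Old ND, which does not show that they were unchanged there. For 3 genes that changed alike, the interval of the difference was -0.34 to 0.24 for Esr1, -0.36 to 0.19 for Sema3b and -0.27 to 0.29 for Slit2.

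Of 41 pathway lists, 33 had no gene past the threshold. Of the 780 list genes measured 12 passed (1.54%), against 0.392% of all genes; the lists were chosen with results of these data known, so nothing is read from that share. Of 17 cholesterol synthesis genes, Nsdhl was the 1 that passed. The median change of these 17 genes was 0.14, made up of 0.37 in Old CR and 0.05 in Old CR-ND. Nsdhl, Fdps and Fdft1, the last 2 named after their values were seen, differed between the schedules, Fdps with 1.08 ± 0.15 in Old CR and 0.06 ± 0.15 in Old CR-ND. None of the 18 fatty acid synthesis genes passed, with Acss2 at 0.46 (adjusted p = 0.092) and Scd1, the stearoyl-CoA desaturase, at 0.71 (adjusted p = 0.11).

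Matrix lists gave 2 calls. Mgp and Thbs3, in opposite directions, were the 2 called of 19 matricellular genes. None of 11 fibrillar collagens, 21 other collagens, 22 collagen processing genes or 15 elastic fibre genes passed, and their medians were -0.01, -0.12, 0.11 and -0.03. The nearest to the threshold were Col27a1, a fibrillar collagen, at -0.38 (adjusted p = 0.054; -0.25 without Old ND replicates 1 and 3), and P3h4, a partner of the collagen hydroxylases, at 0.29 (adjusted p = 0.062).

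Signalling and immune lists were similar. Of 31 cytokines and chemokines 2 fell, of 27 Wnt antagonists and targets 1 fell (Dkk2), and of 13 neuropilins and semaphorins 1 rose and 1 fell. None of 16 IGF axis genes passed: the binding protein Igfbp4 stood at -1.61 ± 0.39 (adjusted p = 0.078; -1.03 without Old ND replicates 1 and 3), and Igfbp3 at 1.13 ± 0.39, with 2.38 in Old CR and -0.12 in Old CR-ND. None of 24 type I interferon genes passed, although the list's median was 0.18, with 0.19 in Old CR and 0.16 in Old CR-ND. Both medians subtract the same Old ND arrays, and the list's array means overlapped between the groups. The median was 0.28 among first-run and 0.08 among second-run arrays. Usp18, a brake on interferon signalling, stood at 0.75 (adjusted p = 0.069), and at 0.32 without Old ND replicates 1 and 3. None of 14 Hedgehog or 23 BMP signalling genes passed. Ptch1, the Hedgehog receptor and target, stood at -0.77 (adjusted p = 0.099), and Id1, a BMP target, at -0.94 (adjusted p = 0.095). Both were highest in Old ND replicates 1 and 3, at 7.36 and 7.99 for Ptch1 and 8.62 and 8.20 for Id1, and without those arrays Ptch1 stood at -0.32 and Id1 at -0.38. The 35 oxidative phosphorylation, 32 ribosomal protein and 29 replication and mitosis genes gave no call and medians of 0.11, -0.03 and -0.01.

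**Figure D5:**
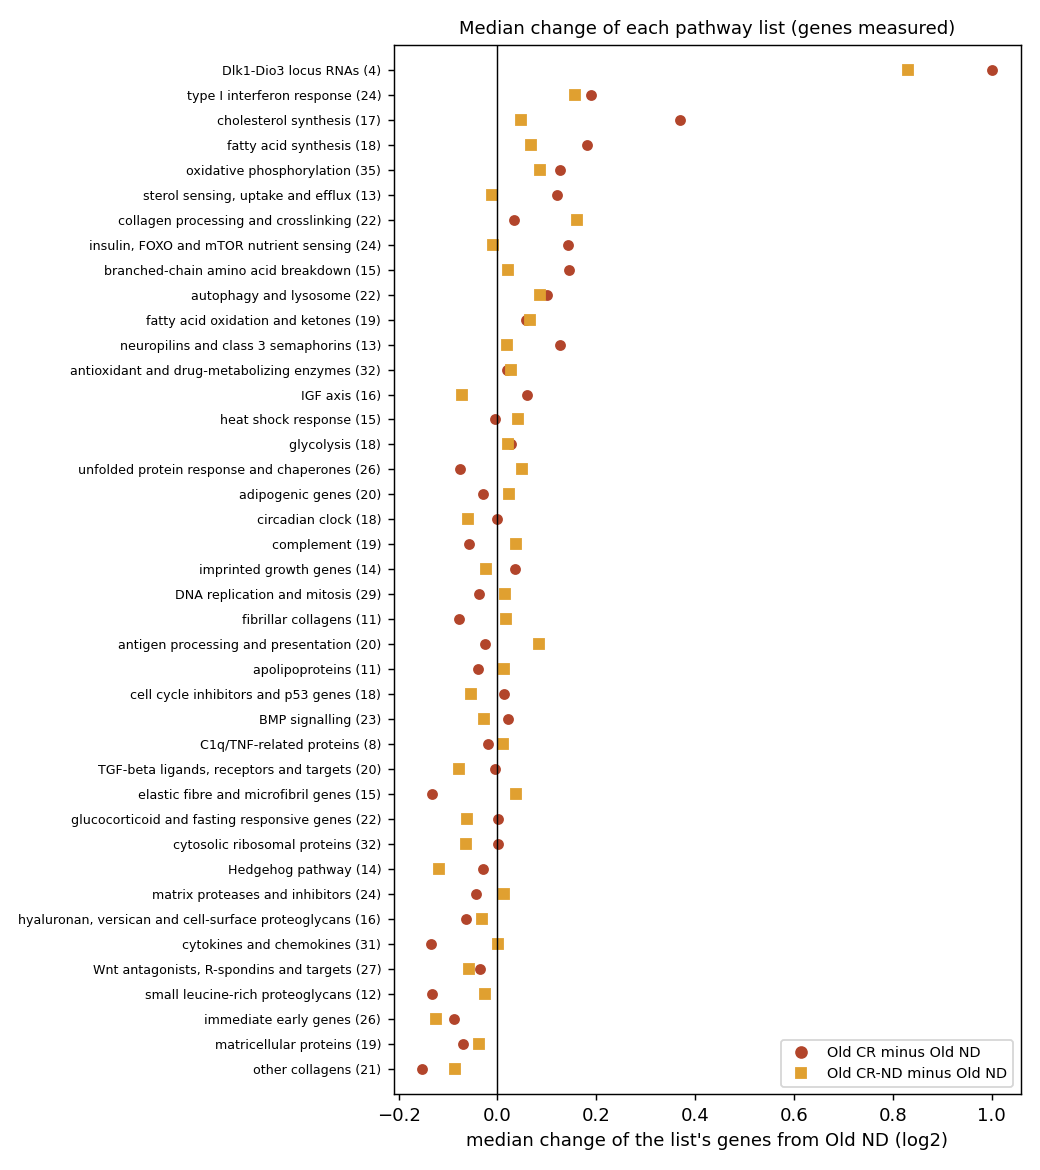
Median change from Old ND on the log2 scale of the genes of each of 41 pathway lists, circles for Old CR and squares for Old CR-ND, with the number of genes measured in parentheses. Apart from the 4 RNAs of the Dlk1-Dio3 locus, at 1.00 in Old CR and 0.83 in Old CR-ND, and the cholesterol synthesis genes in Old CR at 0.37, the medians lie close to 0.

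The changes of the 67 called genes are given within each run of title numbers. All 67 genes kept their sign within each run, but 65 changed less in the second run, where the median size was 0.33, against 0.83 in the first. With the run as a block in the fit all 67 passed, among 175 genes called. Fitted alone, the first run left 62 of the 67. The second run holds 1 Old CR array, so its own fit can decide little for single genes. For that reason nothing is read from a test of whether the diet change differed between the runs. As examples of the smaller change, C1qtnf3 changed by 2.25 among first-run and 1.25 among second-run arrays, and Cmah by 2.18 and 0.73. For 59 of the 67 genes the second-run Old ND arrays lay nearer to the restricted mean than the first-run ones. The first-run ones hold replicates 1 and 3. The 67 were called on these same arrays, most of them of the first run, so the counts of 59, 65 and 67 are favoured in advance. They were not set beside all genes, and nothing is read from them. What set the runs apart was not tested.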

How the data were processed

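RNA of sorted dermal fibroblasts was measured on 20 Affymetrix arrays. The authors deposited 1 log2 value per probe set and array, computed by RMA in the affy package, per the submitters' processing notes; versions are not given in the sources used here. Of 45141 probe sets, 28898 name 1 gene, 551 several and 15692 none in the platform annotation, and 28689 matched a RefSeq GRCm38.p6 entry by Entrez number. The one-gene probe set with the highest mean over the 20 arrays stood for each of 17097 genes, with no filter on dim genes.

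All 20 arrays were fitted in limma 3.58.1 (R 4.3.3) with 1 mean per group and tested two-sided on (Old CR + Old CR-ND)/2 minus Old ND and on Old CR-ND minus Old CR, with Benjamini-Hochberg adjustment over 17097 genes and a threshold of 0.05. The steps were tested on simulated data. Arrays have no read depth, and their number limits the precision (median standard error 0.084). Replicate numbers follow the order of the series and pair nothing.

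Members, 41 pathway lists and 21 cell type lists were chosen with earlier results of these data known. The naming rule took, among called genes brighter than the median gene (5.88), predicted and clone symbols left out, the 14 largest rises and 14 largest falls, up to 3 called members of each list (or 2 of the smallest p where none passed), up to 4 called genes per direction that also differed between the schedules, and the sorting markers. It covered 33 of the 67 called genes. The other 34, and cell type markers, are named after their values were seen. Alternatives were filters, the probe set choice, normalization, eBayes settings, array weights, fewer groups, runs, thresholds and arrays left out.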

Additional observations from a re-analysis of the deposited data

Results flagged for a closer look

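Single arrays lay far from the rest of their group of 5 in 15 of 276 groups looked at over 92 genes; chance gives about 1 in 20 groups. In Old CR, replicate 5 read low for Esr1 (9.77, others 10.32 to 10.53), Galnt2 (9.45, others 9.76 to 9.81), Nsdhl (6.70, others 7.10 to 7.25) and Tbrg1 (9.29, others 9.51 to 9.58). Replicate 4 of Old CR read high for C1qtnf3 (9.19, others 8.35 to 8.55) and low for Id1 (6.30, others 6.55 to 6.65), and replicate 1 read high for Fgf10 (6.16, others 5.81 to 5.90). In Old CR-ND, Mirg was low in replicate 1 (5.20, others 6.79 to 7.39), Ncam2 high in replicate 2 (6.10, others 5.74 to 5.84) and Cx3cl1 low in replicate 4 (8.41, others 8.78 to 8.89). In Old ND, Mustn1 was high in replicate 1 (7.48, others 6.53 to 6.67) and D630039A03Rik in replicate 2 (5.20, others 4.80 to 4.88). Replicate 3 of Old ND was low for 1700019D03Rik (4.09, others 4.51 to 4.66) and Pecam1 (5.54, others 5.67 to 5.70), and replicate 4 high for AW551984 (6.47, others 4.42 to 4.91).

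The direct test of Old CR-ND minus Old CR, in the limma fit, set 7 called genes apart between the schedules: Ctla2a by -3.00, Gm15241 by -0.78, Nsdhl by -0.72, 1700019D03Rik by -0.72, Phka2 by -0.58, Npepl1 by -0.45 and Glis2 by 0.59.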

How the results depend on the processing

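Of the 67 genes, all that were tested kept their direction in each alternative fit (58 and 66 were tested under the filters on dim genes, 67 in the others). The alternatives use the same arrays that called the 67, so kept directions are favoured in advance. The number that passed did not hold. Against 44 higher, 23 lower, 42 shared by both schedules and 57 that differed between them, leaving out 1 old array at a time gave 5 to 94 higher, 1 to 65 lower, 5 to 105 shared and 17 to 110 differing. The 15 old arrays alone gave 19, 6, 17 and 37. A block for the run gave 103, 72, 106 and 120. The first run alone gave 236, 104, 265 and 10, and the second alone 0 higher (in limma), 1 lower, 1 shared and 1 differing. A threshold of 0.01 gave 6, 0, 6 and 19, and one of 0.10 gave 105, 51, 100 and 149. Pooling the 10 restricted arrays as 1 group gave 14 higher and 5 lower. A second quantile normalization gave 37 lower, and array weights gave 235 differing. After seeing the data, Old ND 2 and Old CR-ND 5, with the narrowest spread of levels, were left out, which gave 15, 13, 19 and 25. Old ND 1 and Old ND 3 were left out likewise, which gave 3, 1, 4 and 102. The causes of these moves were not tested.

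Genes near 0 turned sign without passing. Epcam averaged over its probe sets was 0.0565; it was 0.18 in the second run, 0.002 without Old ND 2 and Old CR-ND 5, and -0.1295 to 0.0405 with 1 array left out. Ptprc was 0.0154 in the first run and -0.0345 to 0.0255 with 1 array left out. In the second run Dcn was -0.0075, Pecam1 0.01 and Sox2 0.015. With 1 array left out Sox2 ran from -0.047 to 0.0005 and Dlk1 from -0.01075 to 0.10925. No paired analysis was possible because the replicate numbers follow the order of the series and mark no shared animal, litter or day. With 5 arrays a group, small changes of single genes could not be resolved.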

Other observations

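Old ND was the most variable of the old groups. Of all genes, 22.2% had their largest standard deviation among the old groups in Old CR, 26.9% in Old CR-ND and 50.9% in Old ND.

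Of the 7 called genes that differed between the schedules, 3 lie on chromosome X (Gm15241, Nsdhl and Phka2), as do 5 of the 57 genes that differed in that test and 3.52% of all genes measured. This was looked at after the values were seen.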
